A study of Homo sapiens with 4 samples.

Results

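Integrins and laminins, the receptors and the basement membrane proteins through which cells hold their matrix, were examined in U87MG cells, an established human glioblastoma line. The genes were chosen by a symbol rule, with earlier results of these data known. The rule takes every probe set whose only gene symbol in the platform annotation is ITGA or ITGB followed by 1 or 2 digits or letters, or LAMA, LAMB or LAMC followed by a digit. This gave 36 of the 32321 probe sets on the array, 1 for each gene, which are 17 integrin alpha chains, 8 integrin beta chains, 10 laminin chains and ITGBL1, a secreted integrin-like protein that matches the symbol rule but forms no receptor. ITGA1 has a probe set only in common with PELO and stood outside the rule.

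Total RNA came from cells transfected either with a control siRNA or with an siRNA against CASP2, the caspase-2 gene, and each group holds 2 arrays that the sample labels call biological replicates. All 4 arrays share the parental line, the medium with serum and the Lipofectamine transfection, and no untransfected cells were measured. The sample labels name 1 supplier for the siRNA oligos, and the time of harvest for the arrays was not given in the sources used here. Expression is given as the log2 value after Robust Multi-Array Average (RMA) normalization, and a difference is the mean of the CASP2 siRNA arrays minus the mean of the control siRNA arrays on this log2 scale. Because the arrays measured bulk RNA, fewer cells of a kind and less RNA per cell cannot be told apart.

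Each integrin is a heterodimer of 1 alpha and 1 beta chain that spans the plasma membrane. The alpha chain largely sets the ligand, and the beta chain carries the short cytoplasmic tail to which talin and kindlin bind. Laminins are trimers of 1 alpha, 1 beta and 1 gamma chain, secreted into basement membranes, where integrins with an alpha3, alpha6 or alpha7 chain bind them. Glioma cells are known to move along vascular basement membranes, for which both families are of interest in this tumour.

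CASP2, the silenced gene, had log2 values of 10.74 and 10.69 on the control arrays and of 8.79 and 8.52 on the CASP2 siRNA arrays, so the arrays separated as labelled. Between the 2 arrays of a group, the standard deviation of the difference over the 36 genes was 0.124 in the controls and 0.276 in the silenced cells, beside 0.205 and 0.348 over all probe sets. The silenced arrays therefore differed more from each other than the control arrays did, and results are also given without each of them where this matters. Of the markers of the line, VIM and CD44 lay between 12.92 and 13.04 on all arrays, while the glial genes GFAP, OLIG2, SOX2 and S100B lay between 3.72 and 6.79. NES, the other marker listed, was at 6.45 and 6.58 with the control siRNA and at 6.36 and 6.55 with the CASP2 siRNA. Markers of leukocytes (5 genes, 3.61 to 6.02), endothelium (4 genes, 4.44 to 5.73) and epithelium (4 genes, 5.05 to 7.41) had low or middle values on every array, and none had a limma p under 0.05.

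The control level was described first. A probe set's brightness depends on its own probes as well as on its transcript, so each gene was placed in a band of the array, by the quartiles of all probe sets, and genes were not ranked against each other as amounts of mRNA. On the control arrays the lower quartile lay at 4.40, the median at 6.21 and the upper quartile at 8.66 to 8.68. Of the 36 genes, 11 (30.6%) lay in the upper quartile by their mean over the 4 arrays, and the same 11 did so on each control array taken alone. Among probe sets with 1 gene symbol the share was 31.0%, so the families were not unusually bright as a whole. A further 10 (27.8%) lay between the median and the upper quartile, 13 (36.1%) between the lower quartile and the median, and 2 (5.56%) below the lower quartile. Among probe sets with 1 gene symbol these shares were 31.1%, 24.2% and 13.7%.

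Among the alpha chains, ITGA5, ITGA3, ITGAV and ITGA2 lay in the upper quartile. ITGA5, the alpha chain of the fibronectin receptor, had log2 values of 12.30 and 12.24 with the control siRNA and 12.27 and 12.31 with the CASP2 siRNA. ITGA3, which with beta1 forms a laminin receptor, was at 12.13 and 12.16 against 12.06 and 12.17. For both genes the silenced arrays overlapped the controls.

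ITGAV, the alpha chain common to the vitronectin receptors, was at 10.24 and 10.26 with the control siRNA and at 10.12 and 10.04 with the CASP2 siRNA. Both silenced arrays lay below both controls here. ITGA6 and ITGA7, which bind laminin as ITGA3 does, lay lower in the array. On the control arrays ITGA6 was at 8.57 and 8.51, just under the upper quartile, and ITGA7 at 7.81 and 7.89.

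The remaining alpha chains lay below the array median, except ITGA11 and ITGAD, which lay between the median and the upper quartile. ITGA11, a collagen receptor chain of fibroblasts, was at 6.60 and 6.55 on the control arrays, and ITGA10, which also binds collagen, at 5.47 and 5.17. ITGA4 and ITGA9, the related chains that bind VCAM1, fibronectin or tenascin, were at 5.58 and 5.62 and at 4.81 and 4.73. ITGA8, an RGD receptor chain of mesenchymal tissue, was at 3.92 and 4.16 on the control arrays, under the lower quartile. The 5 leukocyte chains ITGAL, ITGAM, ITGAX, ITGAD and ITGAE and the platelet chain ITGA2B lay between 4.89 and 6.40 on the control arrays, of which ITGAD alone had a mean above the array median. PTPRC, the pan-leukocyte marker, lay at 3.67 and 3.73 on the same arrays.

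Of the 8 beta chains, 3 were in the upper quartile. ITGB1, the partner of most alpha chains, had log2 values of 11.86 and 11.79 with the control siRNA and 11.83 and 11.75 with the CASP2 siRNA. ITGB3, the partner of alphaV in the vitronectin receptor, was at 11.93 and 11.89 against 11.92 and 11.88, and ITGB5, another partner of alphaV, at 9.75 and 9.71 against 9.78 and 9.79. The first pair of genes overlapped between groups, and ITGB5 was higher on both silenced arrays by 0.056 in the mean.

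The other beta chains all lay below the array median. ITGB6 and ITGB8, further partners of alphaV that act on latent TGF-beta, were at 4.80 and 4.74 and at 5.05 and 5.15 on the control arrays. ITGB4, which joins alpha6 in hemidesmosomes, was at 5.97 and 5.86. The leukocyte chains ITGB2 and ITGB7 were at 5.48 and 5.42 and at 6.01 on both arrays.

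Chains were also read by the receptors they form. Of 23 known heterodimers whose chains were both among the 36 genes, 6 had both chains in the upper quartile. These were alpha5beta1, alpha3beta1, alpha2beta1 and alphaVbeta1, with alphaVbeta3 and alphaVbeta5. None of the heterodimers with the leukocyte chains ITGB2 or ITGB7 had a chain in that band. The array measures mRNA, so the assembly of the chains was not measured.

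Of the laminin chains, LAMC1, LAMB1 and LAMA4 were in the upper quartile. LAMC1, the gamma chain of most laminins, had log2 values of 10.88 and 10.80 with the control siRNA and 10.92 and 10.89 with the CASP2 siRNA. LAMB1, a beta chain, was at 10.75 and 10.68 against 10.66 and 10.55. LAMA4, the alpha chain of a laminin of vessel walls, was at 9.88 and 9.67 against 9.98 and 9.64.

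These 3 chains form laminin-411, which alone of 8 trimers with LAMC1 as the gamma chain had all its chains in the upper quartile. Trimers with LAMC3 were not counted. The alternative beta chain LAMB2 was at 8.28 and 8.29 on the control arrays, and the alternative alpha chains LAMA1, LAMA5 and LAMA2 were at 7.75 and 7.58, at 7.11 and 7.26, and at 6.57 and 6.46. LAMB3, a chain of the epithelial laminin-332, was at 7.39 and 7.67, and LAMC3 at 6.59 and 6.67. LAMB4, the neighbour of LAMB1 in the genome, was at 4.04 and 3.85, below the lower quartile.

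**Figure D1:**
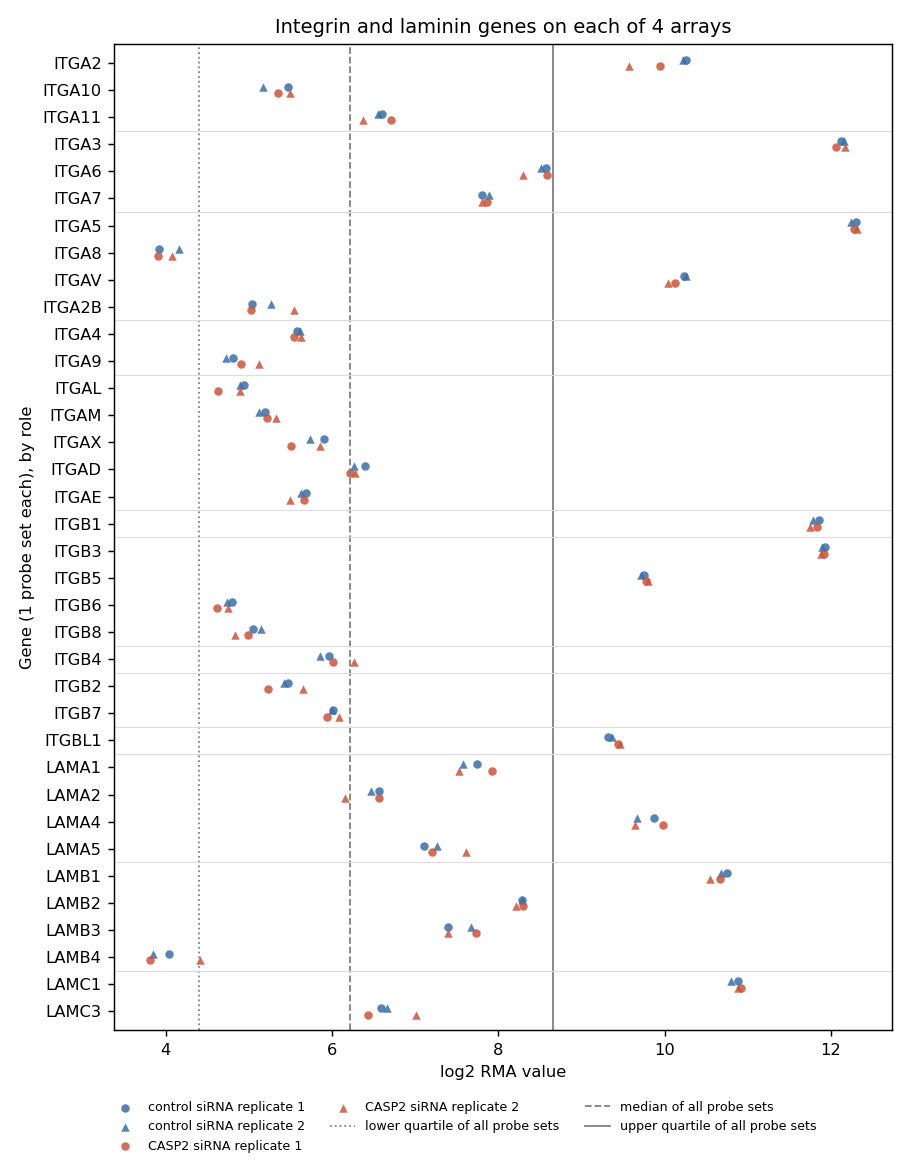
Log2 RMA value (x axis) of each integrin and laminin gene (y axis, ordered by role) on the 2 control siRNA arrays (blue) and the 2 CASP2 siRNA arrays (red), with circles for replicate 1 and triangles for replicate 2; vertical lines are the lower quartile, median and upper quartile of all probe sets, averaged over the arrays. The 11 genes of the upper quartile stand to the right of the solid line, and blue and red points lie close together in nearly every gene, with ITGA2 the widest apart.

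The promoters of these genes were set beside the level bands. RefSeq (build GRCh38.p14) gave a promoter for 25 of the 36 genes, and the 250 bases before the annotated start were used. The median GC content was 70.0% in the 15 genes above the array median and 51.4% in the 10 below it, beside 58.0% over 35116 promoters of the same length. The GC box GGGCGG, read on both strands, was found in 10 of the 15 and in 3 of the 10, beside 42.6% of all promoters. The CCAAT box CCAAT was found in 0 of the 15 and in 4 of the 10, beside 32.0% of all. The TATA box TATAAA was found in 1 of the 25 promoters, that of ITGA6, beside 10.7% of all, and the AP-1 motif TGANTCA in 0 of 25, beside 6.57% of all. These are matches of letters in a short window and do not show that a factor binds there.

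The 4 promoters below are those of the bright genes that lay lower on both silenced arrays (ITGA2, ITGAV and LAMB1) and, for comparison, of ITGB1, the shared beta chain, whose groups overlapped. They are printed from 5' to 3' on the strand of the gene and end at the base before the start, with each GC box in capitals.
ITGA2 (chr5:52989102-52989351, plus strand): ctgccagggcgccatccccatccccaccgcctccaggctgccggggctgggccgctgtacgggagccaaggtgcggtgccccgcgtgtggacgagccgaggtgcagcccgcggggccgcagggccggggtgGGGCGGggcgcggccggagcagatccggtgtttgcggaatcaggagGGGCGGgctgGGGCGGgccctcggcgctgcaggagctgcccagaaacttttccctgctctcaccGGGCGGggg
ITGAV (chr2:186589806-186590055, plus strand): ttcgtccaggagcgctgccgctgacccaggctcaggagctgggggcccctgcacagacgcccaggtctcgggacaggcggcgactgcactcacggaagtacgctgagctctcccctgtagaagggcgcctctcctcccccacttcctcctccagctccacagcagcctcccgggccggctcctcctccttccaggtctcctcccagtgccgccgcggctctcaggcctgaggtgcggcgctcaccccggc
LAMB1 (chr7:108003162-108003411, minus strand): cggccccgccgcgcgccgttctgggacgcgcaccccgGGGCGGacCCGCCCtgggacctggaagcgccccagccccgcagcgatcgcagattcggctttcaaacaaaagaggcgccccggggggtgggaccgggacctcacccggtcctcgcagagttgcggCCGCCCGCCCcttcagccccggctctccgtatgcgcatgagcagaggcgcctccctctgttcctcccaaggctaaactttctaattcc
ITGB1 (chr10:32958231-32958480, minus strand): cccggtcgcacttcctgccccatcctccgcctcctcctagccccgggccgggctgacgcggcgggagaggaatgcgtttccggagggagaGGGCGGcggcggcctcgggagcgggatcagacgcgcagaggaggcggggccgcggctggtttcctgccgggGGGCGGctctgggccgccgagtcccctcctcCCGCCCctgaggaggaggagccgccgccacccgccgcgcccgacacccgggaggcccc
The window of ITGA2 holds 4 GC boxes, that of LAMB1 holds 4, some of them overlapping, and that of ITGB1 holds 3, while that of ITGAV holds none. The GC content was 76.4% for ITGA2, 70.8% for ITGAV, 70.4% for LAMB1 and 78.4% for ITGB1. None of the 4 holds any of the other motifs.

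Silencing of CASP2 was then compared with the control siRNA. None of the 36 genes passed the adjusted limma test, as was true of all probe sets (0%), and the smallest adjusted p of the 36 was 0.9999. CASP2 itself had a log2 difference of -2.06 and an unadjusted limma p of 4.0e-05, and its adjusted limma p was 0.9999 as well. Not passing the adjusted test therefore does not show that a gene was unchanged. None of the 36 differed by over 1.5-fold and at the same time had an unadjusted p under 0.05 from limma, in either direction. Of all probe sets, 0.331% passed these thresholds upwards and 0.362% downwards, and of those with 1 gene symbol 0.0992% and 0.136%. An unadjusted limma p under 0.05 alone was met by 1 gene, ITGA2, which was lower, and by no gene that was higher. The share lower was 2.78% of the 36, beside 1.49% of all probe sets and 1.12% of those with 1 gene symbol. Higher at that threshold were 1.54% of all probe sets and 1.08% of those with 1 gene symbol. The methods' t-test called none of the 36 at an unadjusted p under 0.05, beside 0.309% of all probe sets and 0.183% of those with 1 gene symbol. With 2 arrays a side, the smallest two-sided p of an exact permutation test is 0.333.

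The differences were centred near 0. The median was -0.013 over the 36 genes and 0.0022 over all probe sets, and 16 of the 36 (44.4%) were above 0, beside 50.7% of all probe sets. By family, 5 of 17 alpha chains, 3 of 8 beta chains and 7 of 10 laminin chains were above 0, with medians of -0.030, -0.0092 and 0.050. The 95% interval of the difference lay within 1.5-fold in either direction for 82.8% of probe sets with 1 gene symbol and 75.7% of all. It did so for 30 of the 36 genes (83.3%). This count was 10 with the methods' t-test, 14 without control siRNA replicate 1 and 11 without control siRNA replicate 2, and 27 and 33 without CASP2 siRNA replicate 1 or 2.

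**Figure D2:**
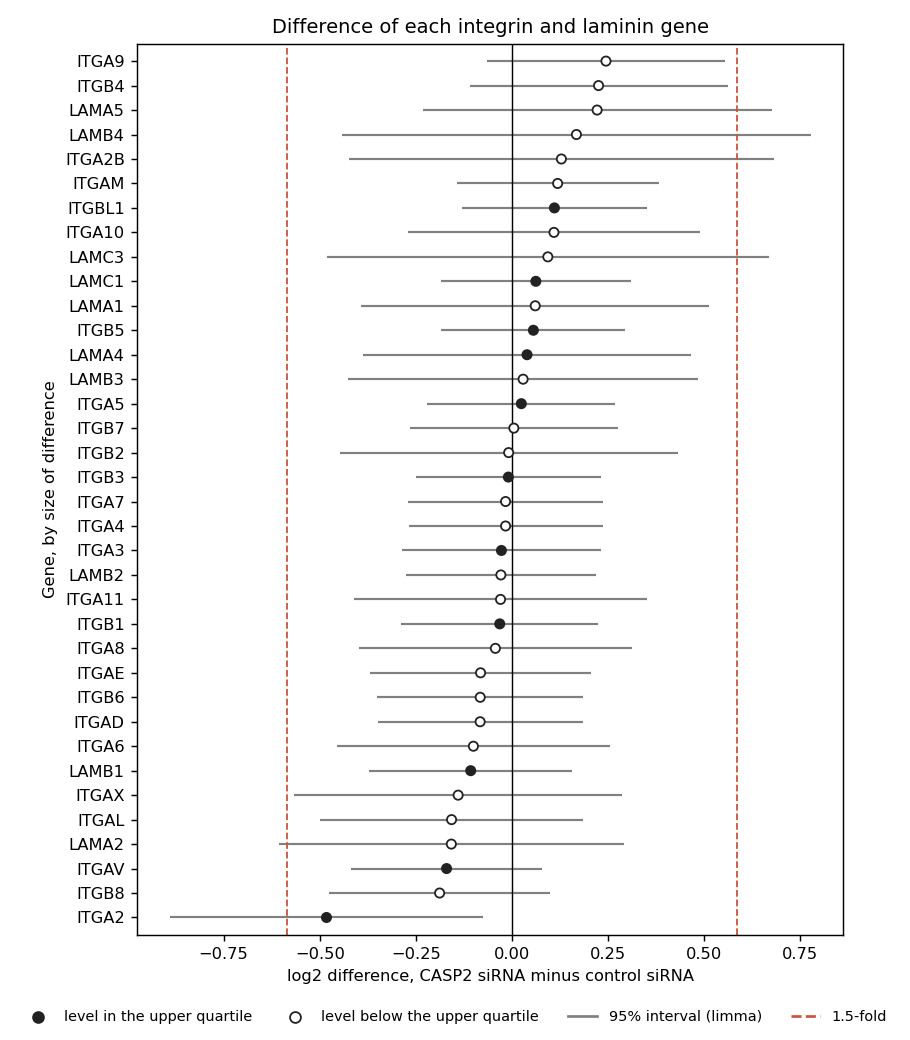
Log2 difference, CASP2 siRNA minus control siRNA (x axis), of each integrin and laminin gene (y axis, ordered by size), with limma 95% intervals as bars; filled points are genes in the upper quartile and dashed lines mark 1.5-fold. The interval of ITGA2 (-0.89 to -0.074) is the only one that leaves out 0, and 30 of the 36 intervals lie between the dashed lines.

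ITGA2, the alpha chain of the collagen and laminin receptor alpha2beta1, had the largest difference. Its log2 values were 10.26 and 10.22 with the control siRNA and 9.94 and 9.57 with the CASP2 siRNA. Both silenced arrays lay below both controls, and replicate 2 lay much farther below than replicate 1. The mean was 10.24 ± 0.028 (SD, n = 2) against 9.76 ± 0.26 (SD, n = 2), a log2 difference of -0.48 (SE 0.15, 95% interval -0.89 to -0.074), or 1.40-fold less, with an unadjusted limma p of 0.030 and an adjusted p of 0.9999. The methods' t-test gave an unadjusted p of 0.12 for this gene. The difference was -0.67 without CASP2 siRNA replicate 1 and -0.30 without CASP2 siRNA replicate 2. It was -0.46 without control siRNA replicate 1 and -0.50 without control siRNA replicate 2. Each of these fits leaves 1 group with a single array, which is assumed to vary like the other group. ITGB1, its only partner, had a difference of -0.032 (-0.29 to 0.22), and the probe set shared by PELO and ITGA1 one of 0.039 (-0.22 to 0.30).

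ITGA2, ITGB8, ITGAV and LAMB1 were the 4 genes (11.1%, beside 15.1% of all probe sets) for which the higher silenced array was still under the lower control. ITGB8 had log2 values of 5.05 and 5.15 against 4.99 and 4.83, a difference of -0.19 (95% interval -0.48 to 0.099). For ITGAV the difference was -0.17 (-0.42 to 0.078) and for LAMB1 it was -0.11 (-0.37 to 0.16). All 3 intervals include 0. ITGAV and ITGB8 together form a receptor for latent TGF-beta, and the adjusted limma p was 0.9999 for each.

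Both silenced arrays lay above both controls for 6 genes (16.7%, beside 14.5% of all probe sets), which were ITGA9, ITGB4, ITGAM, ITGBL1, LAMC1 and ITGB5. ITGA9 was at 4.81 and 4.73 against 4.91 and 5.12, a log2 difference of 0.24 (-0.066 to 0.55). ITGB4 was at 5.97 and 5.86 against 6.02 and 6.26, a difference of 0.23 (-0.11 to 0.56). Both genes lay below the array median.

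ITGBL1 was at 9.32 and 9.37 against 9.45 and 9.47, a difference of 0.11 (-0.13 to 0.35), and LAMC1 differed by 0.062 (-0.19 to 0.31). ITGAM, a leukocyte chain, was at 5.19 and 5.13 against 5.22 and 5.33, a difference of 0.12 (-0.14 to 0.38). None of the 6 had an unadjusted limma p under 0.05. With arrays centred on their medians the counts were 8 lower (22.2%, beside 14.7% of all probe sets) and 4 higher (11.1%, beside 11.1%), so the balance between lower and higher turned with the scaling.

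For the bright receptors, the log2 difference was 0.024 (95% interval -0.22 to 0.27) for ITGA5, -0.028 (-0.29 to 0.23) for ITGA3, -0.0096 (-0.25 to 0.23) for ITGB3 and 0.056 (-0.18 to 0.29) for ITGB5. Over the 11 genes of the upper quartile the median width of the interval to either side was 0.25, beside 0.27 for all probe sets of that band. It was 0.41 for the 10 genes between the median and the upper quartile, beside 0.35 for all probe sets of that band. For the 13 genes of the band below it was 0.31, beside 0.38. Of the 11, ITGA2 alone had an interval that reached past 1.5-fold. The other 5 genes with such an interval were LAMA2, LAMA5, LAMB4, LAMC3 and ITGA2B, of which 4 are laminin chains.

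The silenced arrays also differed from each other gene by gene. They lay on opposite sides of the control mean for 20 of the 36 genes (55.6%, beside 51.5% of all probe sets). CASP2 siRNA replicate 2 was lower than replicate 1 by over 0.25 in 7 genes, ITGA2, ITGA6, ITGA11, LAMA1, LAMA2, LAMA4 and LAMB3, and higher by over 0.25 in 7 others, ITGA2B, ITGAL, ITGAX, ITGB2, LAMA5, LAMB4 and LAMC3. Together these are 38.9% of the 36 genes, beside 37.8% of all probe sets.

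LAMC3 had log2 values of 6.43 and 7.01 on the silenced arrays, on either side of its controls at 6.59 and 6.67. LAMA1, the alpha chain of the embryonic laminin-111, was at 7.92 and 7.53 against 7.75 and 7.58, and LAMA2, the alpha chain of muscle and nerve laminin, at 6.57 and 6.15 against 6.57 and 6.46. LAMA5, an alpha chain of vascular and epithelial laminins, was at 7.20 and 7.61 against 7.11 and 7.26. The difference between group means was 0.093 for LAMC3, 0.060 for LAMA1, -0.16 for LAMA2 and 0.22 for LAMA5, in each case less than the gap between the silenced arrays of that gene. Over all probe sets between the median and the upper quartile, the median departure from the control mean was -0.011 on silenced replicate 1 and -0.021 on replicate 2, and in the band below it -0.049 and 0.11. In the upper quartile, the band of ITGA2, ITGAV and LAMB1, it was 0.019 on replicate 1 and -0.053 on replicate 2. The part of array quality or of level in these departures was not tested.

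**Figure D3:**
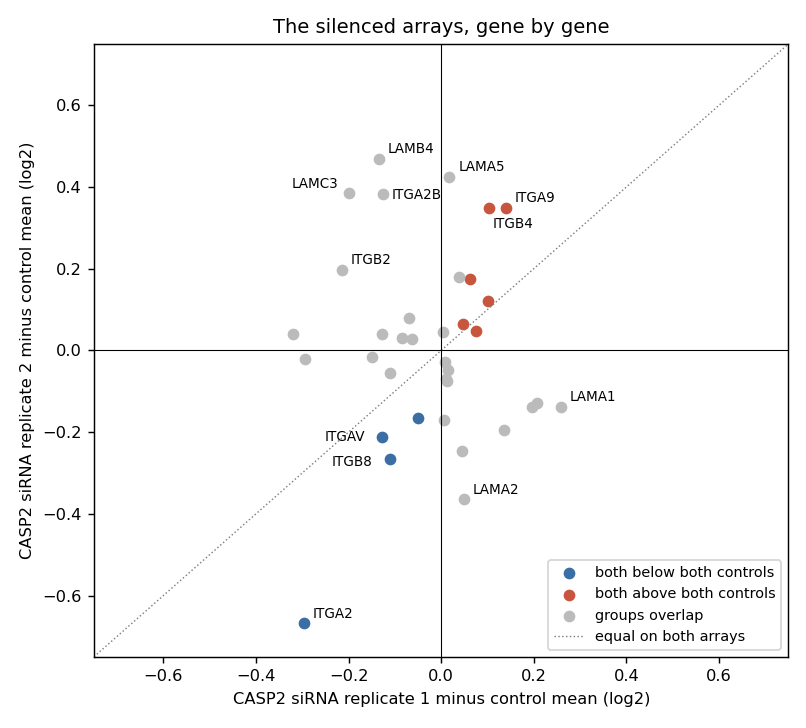
Log2 value on CASP2 siRNA replicate 2 minus the control mean (y axis) against the same on CASP2 siRNA replicate 1 (x axis), 1 point per integrin or laminin gene; blue and red points are the 4 and 6 genes with both silenced arrays below or above both controls, and grey points are genes whose groups overlap. In 20 of the 36 genes the point lies in the upper left or lower right, where the silenced arrays depart from the controls in opposite directions.

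Genes that work with these families were read from lists, each gene by its brightest probe set. This choice favours the upper quartile, which holds 31.0% of the probe sets with 1 gene symbol. Of 38 measured cytoplasmic adaptors and kinases of integrin adhesions, 24 lay in the upper quartile of the array. Their median log2 difference was 0.0042, 20 were above 0, and 0 had an unadjusted limma p under 0.05. The smallest p-values in this list were those of TNS1, a tensin, with a log2 difference of 0.16 (95% interval -0.11 to 0.42), PARVA, a parvin that joins integrin-linked kinase to actin, with 0.14 (-0.10 to 0.37), and FERMT3, the kindlin of blood cells, with -0.17 (-0.46 to 0.13).

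Of 13 membrane partners and cytoplasmic inhibitors of integrins, all 13 lay in the upper quartile, beside 31.0% of probe sets with 1 gene symbol. The median difference of the 13 was 0.0048, and 7 were above 0. PLAUR, the urokinase receptor, had -0.20 (-0.46 to 0.049), SLC3A2, the heavy chain of CD98, 0.13 (-0.11 to 0.37), and ITGB1BP1, which competes with talin for the beta1 tail, -0.17 (-0.54 to 0.20). None had an unadjusted limma p under 0.05.

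Of 11 measured partners of the laminin network and other laminin receptors, 6 were above 0 and the median was 0.065. NTN4, a netrin that binds laminin gamma chains and loosens the network, had log2 values of 6.68 and 6.79 with the control siRNA and 7.17 and 6.97 with the CASP2 siRNA. Both silenced arrays were higher, with a difference of 0.34 (95% interval 0.027 to 0.64) and an unadjusted limma p of 0.039. POMT1 and POMT2, which glycosylate dystroglycan, had 0.11 (-0.16 to 0.38) and -0.096 (-0.34 to 0.15).

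Of 24 other integrin ligands, 15 were above 0, 12 lay in the upper quartile (beside 31.0% of probe sets with 1 gene symbol) and the median was 0.015. ICAM1, the ligand of the leukocyte beta2 integrins, was at 5.82 and 5.995 against 6.22 and 6.30, a difference of 0.35 (0.061 to 0.65) with an unadjusted limma p of 0.028. FN1, fibronectin, the ligand of alpha5beta1, was at 11.98 and 11.82 against 12.13 and 12.07, a difference of 0.19 (-0.088 to 0.47), and THBS2, a thrombospondin, had -0.15 (-0.39 to 0.093). Over the 4 lists, NTN4 and ICAM1 were the 2 genes with an unadjusted limma p under 0.05, both higher, which is 2.33% of 86 genes. Of all probe sets 1.54% were higher at that threshold and 1.49% lower, and of those with 1 gene symbol 1.08% and 1.12%. No gene of the lists passed the adjusted test or differed by over 1.5-fold.

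**Figure D4:**
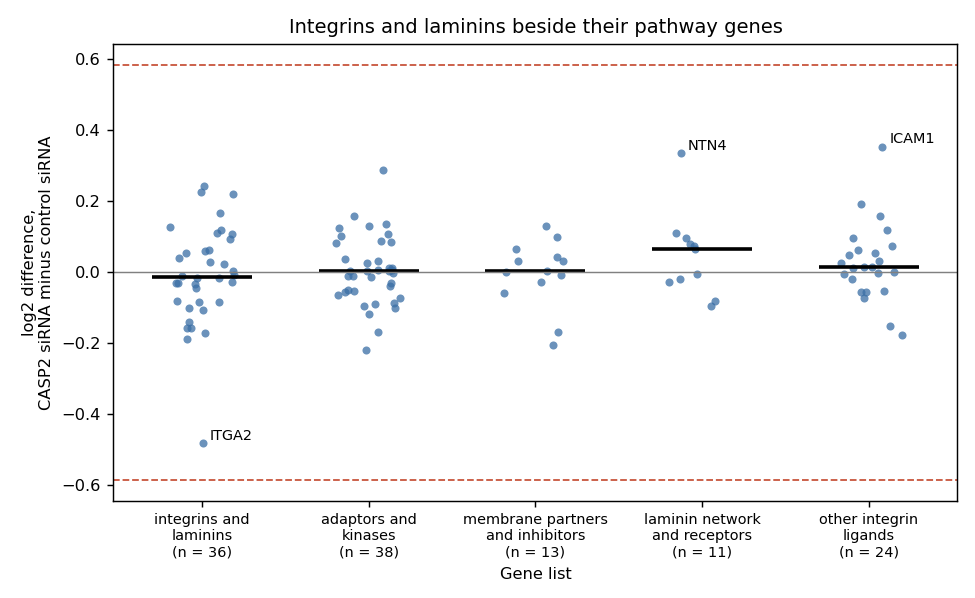
Log2 difference, CASP2 siRNA minus control siRNA (y axis), of each gene in 5 lists (x axis, with the number of genes), 1 point per gene and a bar at the list's median; names mark genes with an unadjusted limma p under 0.05 and dashed lines 1.5-fold. All points lie between the dashed lines, and the medians lie between -0.013 and 0.065.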

How the data were processed

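Gene expression was measured in U87MG cells on 4 Affymetrix Human Gene ST arrays, 2 per group, with groups and replicate numbers taken from the sample titles. The authors normalized the arrays with RMA (no version stated) and deposited 1 log2 value for each probe set on each array. RMA equalizes the arrays, so a shift of all genes is largely removed. Every column was mapped to a sample. Symbols came from the platform annotation, updated by gene ID through RefSeq (GRCh38.p14), which changed none of the 36.

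limma 3.58.1 (lmFit and eBayes, R 4.3.3) was fitted to all 32321 probe sets, with two-sided p-values adjusted over the whole table by Benjamini-Hochberg, and was tested on simulated data. Intervals are 95% limma intervals. They and the p-values cover the spread between these 4 arrays, called biological replicates with no word on separate cultures. The number of arrays limits the precision. The methods' t-test used a pooled standard deviation raised to its median. The members, pathway lists and marker lists were chosen with earlier results of these data known, and the promoters printed after their values were seen. Described in full were the upper quartile genes, the 5 largest differences in each direction without overlap (4 were found downwards), and the 3 smallest p-values of each list. No set test was run. No protein sequence was used.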

Additional observations from a re-analysis of the deposited data

How the results depend on the processing

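No gene among the 36 passed the adjusted test under any alternative, but CASP2 itself did not pass it in the main fit either. The replicate numbers did not pair the arrays (correlation of deviations 0.020 over all probe sets), and with the replicate block 1 gene again had an unadjusted p under 0.05, ITGA2 at p = 0.024 from limma. That count, to be read beside 2.99% of all probe sets with the block, was 0 with the methods' t-test (0.309% of all) and 2 with trend and robust options (ITGA2 and ITGAV, 3.83% of all), and with each array left out in turn it ranged from 0 to 7 in fits that leave 1 group with a single array, assumed to vary like the other group, the 7 being without CASP2 siRNA replicate 1, where 19.4% of all probe sets met the same threshold. Past 1.5-fold with an unadjusted p under 0.05 it was 0 to 1 in those fits, the 1 being ITGA2 without CASP2 siRNA replicate 1. The genes with both silenced arrays above both controls numbered 3 among probe sets above the median, which leave 21 genes, and 8 to 16 with an array left out. Those below numbered 7 after a further quantile normalization, 8 with arrays centred on their medians, and 6 to 16 with an array left out, where fewer arrays overlap less by construction. Intervals within 1.5-fold numbered 10 with the methods' t-test, 17 of 21 among probe sets above the median and 11 to 33 with an array left out. The median difference ranged over the left-out arrays from -0.027 to 0.0074 for the 36 genes, -0.0033 to 0.021 for adaptors and kinases, -0.056 to 0.030 for membrane partners, -0.031 to 0.073 for laminin partners and -0.0014 to 0.039 for other ligands. With arrays centred on their medians it was -0.015 for adaptors and kinases. The sign of the median was therefore not settled for any of these lists, and the sign of single genes changed in at most 12 of the 36, without CASP2 siRNA replicate 2, none of them with a difference above 0.17 in size. The cause of these shifts was not tested.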
